A study of Mus musculus with 9 samples.

Results

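Glycolysis turns glucose into pyruvate, and 34 mouse genes for that route were followed here from the uptake of glucose to the entry of pyruvate into mitochondria. They were chosen by symbol, as glucose carriers, glycolytic enzymes, lactate dehydrogenases, lactate carriers, and the kinases, subunits and carriers that govern the mitochondrial use of pyruvate. All 34 symbols were found, on 35 of the 25108 entries of the expression table, because Aldoa stood on 2 entries. The table covers 9 RNA-seq libraries, 3 in each of 3 groups, made from the retina of C57BL/6 mice on postnatal day 17. The OIR KO libraries came from IL-19 knockout mice with oxygen-induced retinopathy, a model in which pups breathe high oxygen, lose retinal capillaries and return to room air, where the underperfused retina becomes hypoxic and grows new vessels. The OIR WT libraries came from wild-type mice with the same retinopathy, and the RA WT libraries from wild-type mice kept in room air. Knockout mice in room air were not analysed here, so the knockout could be compared with wild type only within retinopathy. The labels do not say how the knockout was made or how many animals a library holds, so p-values rest on the spread between these libraries alone, and that spread may be technical.

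In glycolysis, hexokinase traps glucose in the cell, phosphofructokinase commits it to the pathway, and the later enzymes yield ATP and pyruvate. Lactate dehydrogenase converts pyruvate to lactate, which monocarboxylate carriers move across the membrane, while the pyruvate dehydrogenase complex turns pyruvate into acetyl-CoA inside mitochondria and is switched off by its kinases. Photoreceptors are known for making much lactate even in oxygen, and many genes of the pathway are textbook targets of hypoxia-inducible factors.

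The targeted gene, Il19, was listed at 0 in each library but RA WT 1, where it was at 0.0406 FPKM, so it gives no check of the genotype labels. Values are in FPKM, a level per transcript length and library size, and the absolute depth is unknown. Within a group, libraries correlated across genes (log2 scale) with r between 0.974 and 0.985. On the leading principal component of all genes, OIR KO 1, 2 and 3 lay at 7.96, 32.5 and -3.30. OIR WT 1, 2 and 3 lay at 28.9, 11.7 and 31.3, and RA WT 1, 2 and 3 at -35.9, -35.96 and -37.2. OIR KO 2 and OIR WT 2 thus each stood apart from their groups. Y-linked genes were listed at 0 in OIR KO 1 and RA WT 2. All 12 rod markers had values, with sums of 11789 to 15844 FPKM in OIR KO, 12069 to 13874 FPKM in OIR WT and 13395 to 14787 FPKM in RA WT.

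In wild-type retinas with retinopathy, most steps of glycolysis had at least 1 gene that rose above room air. Of the 34 genes, 33 passed the filter on low values. In OIR WT against RA WT, 14 of the 33 rose and 3 fell, together 17 (limma, Benjamini-Hochberg adjusted p under 0.05). Among all 15678 genes tested, 8.04% rose and 7.92% fell, together 16%. The 34 genes were chosen with earlier results of these data known, so counts set against all genes are descriptions, here and below. The risen genes were Slc2a1, Gpi1, Pfkl, Pfkp, Pfkfb3, Aldoa, Tpi1, Pgk1, Pgam1, Eno1, Ldha, Slc16a3, Pdk1 and Pdk3, and the fallen ones Pfkm, Ldhb and Pdhb. Without 1 library the risen count was 11 to 16 and the fallen count 0 to 5, with 0 fallen without RA WT 3 or OIR WT 1, 1 without OIR WT 3 and 5 without RA WT 1. The median log2 difference of the 33 was 0.29, against 0.02 over all genes. At an unadjusted p under 0.05, 16 were higher and 9 lower, against 15.6% and 14.8% of all genes. In 17 of the 33 every OIR WT library was above every RA WT library and in 10 below, against 17.8% and 17.2%. In these bulk samples, fewer cells of a type and less RNA per cell cannot be told apart.

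Markers of vessel-associated and immune cells moved in the same comparison, in which 8.04% of all genes rose and 7.92% fell. Of 10 pericyte and smooth muscle markers, 7 rose and 0 fell in OIR WT against RA WT, with sums of 84.1 to 142 FPKM in OIR KO, 104 to 156 FPKM in OIR WT and 44.8 to 58.6 FPKM in RA WT. Of 9 microglia and macrophage markers tested, 4 rose and 0 fell, and all 10 on the list summed to 32.8 to 41.8 FPKM in OIR KO, 40.1 to 48.2 FPKM in OIR WT and 21.3 to 24.2 FPKM in RA WT. Of 10 endothelial markers, 3 rose and 1 fell, with sums of 118 to 155 FPKM in OIR KO, 89.4 to 118 FPKM in OIR WT and 74.5 to 99.5 FPKM in RA WT. Of 10 Müller glia markers, 2 rose and 5 fell, and of 5 erythrocyte markers tested 5 rose. No marker of these lists with an entry in the table was at 0 in all 9 libraries. In OIR KO against RA WT, 4 pericyte and smooth muscle, 4 microglia and macrophage and 6 endothelial markers rose, against 4.75% of all genes. There 2 Müller glia markers fell, against 5.69%. In OIR KO against OIR WT limma called no marker of these lists. At an unadjusted p under 0.05, 5 Müller glia and 3 endothelial markers were higher there, against 5.17% of all genes. Lower were 1 Müller glia, 2 pericyte and smooth muscle, 2 microglia and macrophage and 3 erythrocyte markers, against 4.75%. The part of these cells in the glycolytic values was not tested.

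In knockout retinas with retinopathy the 14 genes had lower means than in wild-type retinas with retinopathy, but none passed the test. In OIR KO against OIR WT, limma called 0 of the 33 in either direction, against 0.0574% risen, 0.0765% fallen and 0.134% in either direction among all genes. At an unadjusted p under 0.05, 17 of the 33 were lower and 1, Mpc1, was higher, against 4.75% and 5.17% of all genes. Every OIR KO library was below every OIR WT library in 16 of the 33, against 7.98% of all genes, and above in 1, Pdhb, against 9.73%. Without OIR KO 2 the count above was 5, against 17.3% of all genes, and without OIR WT 2 or OIR WT 3 it was 2, against 15.6% and 14.9%. The median log2 difference was -0.25 over the 33, against -0.0027 over all genes. The same OIR WT libraries enter both comparisons, and genes of a pathway are not independent of each other.

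The size of the knockout difference depended on OIR KO 2, the highest of the 3 knockout libraries in 14 of the 14 genes that rose in OIR WT. The share of all genes risen in OIR WT with that order was not computed. On the leading principal component of all genes OIR KO 2 also stood highest of all libraries, at 32.5. In all of these genes but Pfkp, Aldoa and Ldha, OIR WT 2 was the lowest of the OIR WT libraries. Without OIR KO 2, 4 of the 33 genes fell in OIR KO against OIR WT, namely Pfkl (adjusted p = 0.0442), Pgk1 (0.0413), Slc16a3 (0.0225) and Pdk1 (0.0108), while the call count over all genes was 42, against 21 with all libraries. Without OIR WT 2, the 1 fallen gene was Pfkfb3 (adjusted p = 0.0309). The 7 erythrocyte markers with values, of 8 on the list, summed to 112, 1069.9 and 113 FPKM in OIR KO, 1171, 512 and 1431 FPKM in OIR WT and 94.8, 82.5 and 158 FPKM in RA WT, so OIR KO 2 also stood with OIR WT there. The 10 Müller glia markers summed to 2208, 2317 and 2327 FPKM in OIR KO, 1661, 1995 and 1842 FPKM in OIR WT and 2379.6, 2930.5 and 3145 FPKM in RA WT, lowest in OIR WT, and here OIR KO 2 lay with its group. Whether either plays a part in the glycolytic values was not tested.

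**Figure D1:**
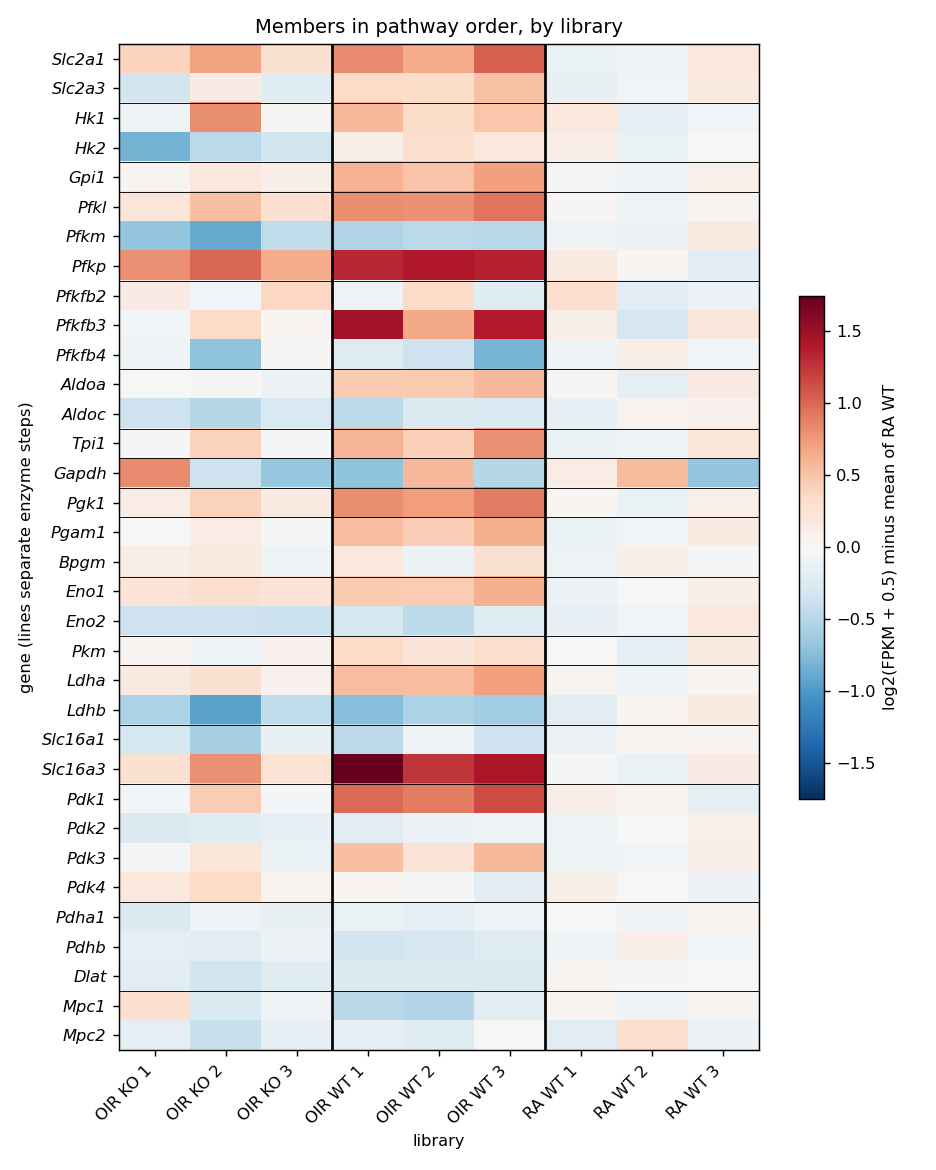
Heat map of the 34 genes (rows, in pathway order, lines between steps) in the 9 libraries (columns), coloured by log2(FPKM + 0.5) minus the mean of the RA WT libraries. The OIR WT columns are red for the 14 risen genes, and OIR KO 2 is the highest of the OIR KO columns for each of them.

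Glucose enters retinal cells through the carriers GLUT1 and GLUT3. Slc2a1, which encodes GLUT1, was at 136, 168 and 125 FPKM in OIR KO, at 183, 162 and 211 FPKM in OIR WT and at 95.6, 98.5 and 117 FPKM in RA WT. All retinopathy libraries exceeded all room-air libraries, while knockout and wild type overlapped through OIR KO 2 and OIR WT 2. Slc2a1 rose in OIR WT against RA WT by 0.83 on the log2(FPKM + 0.5) scale used throughout (SE 0.14, adjusted p = 0.00534). The OIR KO libraries differed by -0.38 from OIR WT (adjusted p = 0.423) and by 0.46 from RA WT (adjusted p = 0.0642), and that from RA WT was called without OIR KO 3 (0.0460). Slc2a3, which encodes the neuronal carrier GLUT3, was at 19.7, 27.4 and 21.3 FPKM in OIR KO, at 31.6, 30.9 and 35.6 FPKM in OIR WT and at 22.6, 23.9 and 27.9 FPKM in RA WT. The OIR WT libraries were the 3 highest of the 9. Slc2a3 was not called, with a difference of 0.39 between OIR WT and RA WT (adjusted p = 0.0699, or 0.0295 without OIR KO 2) and -0.52 between OIR KO and OIR WT (adjusted p = 0.229).

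Hexokinase phosphorylates glucose, and its inducible isoform was the gene in which knockout libraries lay below both wild-type groups. Hk2, the isoform known from photoreceptors (chr6:82725025-82774454, GRCm38), was at 27.6, 35.7 and 39.6 FPKM in OIR KO, at 53.1, 61.4 and 56.5 FPKM in OIR WT and at 53.6, 45.7 and 49.3 FPKM in RA WT. No OIR KO library reached any wild-type library. Hk2 fell in OIR KO against RA WT (log2 -0.54, SE 0.13, adjusted p = 0.0300), though not once RA WT 1, RA WT 3, OIR KO 1 or OIR KO 2 was left out (0.0645 to 0.0847), nor in a fit of the 6 libraries compared (0.0582). Against OIR WT, OIR KO differed by -0.74 (SE 0.13, adjusted p = 0.0842), and OIR WT differed from RA WT by 0.20 (adjusted p = 0.334). Hk1, the widely expressed isoform, was at 186, 347 and 199.9 FPKM in OIR KO, at 293, 247 and 277 FPKM in OIR WT and at 224, 179 and 191 FPKM in RA WT. OIR KO 2 held the highest value of all 9 libraries, and the other knockout libraries lay within the room-air range. In OIR WT against RA WT Hk1 was not called (log2 0.46, SE 0.21, adjusted p = 0.174), except without OIR KO 2 (0.0191) or in a fit of these 6 libraries alone (0.0325).

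Gpi1, the isomerase that makes fructose 6-phosphate, was at 293, 322 and 308 FPKM in OIR KO, at 434, 401 and 469 FPKM in OIR WT and at 280.4, 269.6 and 304 FPKM in RA WT. Its OIR KO libraries lay below all OIR WT libraries and overlapped RA WT. Gpi1 rose in OIR WT against RA WT (log2 0.61, SE 0.09, adjusted p = 0.00370), and OIR KO differed from OIR WT by -0.50 (adjusted p = 0.1).

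At phosphofructokinase, the committed step, the subunit genes went opposite ways. Pfkp, the platelet-type subunit (chr13:6579768-6648777), was at 171, 199 and 155 FPKM in OIR KO, at 247, 262 and 251 FPKM in OIR WT and at 109.7, 101 and 86.5 FPKM in RA WT, so that the 3 groups did not overlap. Pfkp rose in OIR WT against RA WT (log2 1.36, SE 0.12, adjusted p = 0.000352) and was the 1 gene of the 33 to rise in OIR KO against RA WT (log2 0.82, SE 0.12, adjusted p = 0.00430). Both calls held without each of the 9 libraries in turn. Pfkl, the liver-type subunit, was at 126, 157 and 132 FPKM in OIR KO, at 192, 189 and 209.8 FPKM in OIR WT and at 111, 103 and 113 FPKM in RA WT. Again the groups of OIR KO, OIR WT and RA WT did not overlap. In OIR WT against RA WT Pfkl rose (log2 0.85, SE 0.10, adjusted p = 0.00149), and OIR KO differed from OIR WT by -0.51 (adjusted p = 0.126).

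Pfkm, the muscle-type subunit, was at 35.4, 30.9 and 42.01 FPKM in OIR KO, at 39.3, 40.9 and 40.8 FPKM in OIR WT and at 54.9, 53.1 and 63.9 FPKM in RA WT. Every retinopathy library, knockout or wild type, was below every room-air library. Pfkm fell in OIR KO against RA WT (log2 -0.67, SE 0.12, adjusted p = 0.00943) and in OIR WT against RA WT (log2 -0.50, SE 0.12, adjusted p = 0.0204), but in OIR WT not once RA WT 3, OIR WT 1 or OIR WT 3 was left out (0.0575 to 0.0757). Of the summed FPKM of the 3 subunit genes, Pfkm made up 10.5 ± 2.40% in OIR KO, 8.23 ± 0.0814% in OIR WT and 21.6 ± 2.30% in RA WT (SD, n = 3 each). Pfkp made up 49.99 ± 2.45% in OIR KO, 51.6 ± 1.61% in OIR WT and 37.3 ± 3.87% in RA WT of the sum.

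The PFKFB enzymes make and remove fructose 2,6-bisphosphate, a strong activator of phosphofructokinase. Pfkfb3, the form that mostly makes it, was at 8.25, 10.9 and 8.78 FPKM in OIR KO, at 24.4, 13.8 and 23.2 FPKM in OIR WT and at 9.19, 6.87 and 9.91 FPKM in RA WT. The knockout libraries were near the room-air range and below all wild-type retinopathy libraries. Pfkfb3 rose in OIR WT against RA WT (log2 1.17, SE 0.22, adjusted p = 0.00890), and OIR KO differed from OIR WT by -1.06 (SE 0.22, adjusted p = 0.169). Pfkfb2, the most abundant of the family here by FPKM, was at 89.6, 78.1 and 104 FPKM in OIR KO, at 76.05, 102 and 69.8 FPKM in OIR WT and at 99.3, 71.1 and 75.01 FPKM in RA WT, and its groups overlapped. Pfkfb4 was at 3.64 to 6.38 FPKM in OIR KO, 3.35 to 5.30 FPKM in OIR WT and 5.93 to 6.85 FPKM in RA WT, and was not called in OIR WT against RA WT (log2 -0.47, adjusted p = 0.164).

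**Figure D2:**
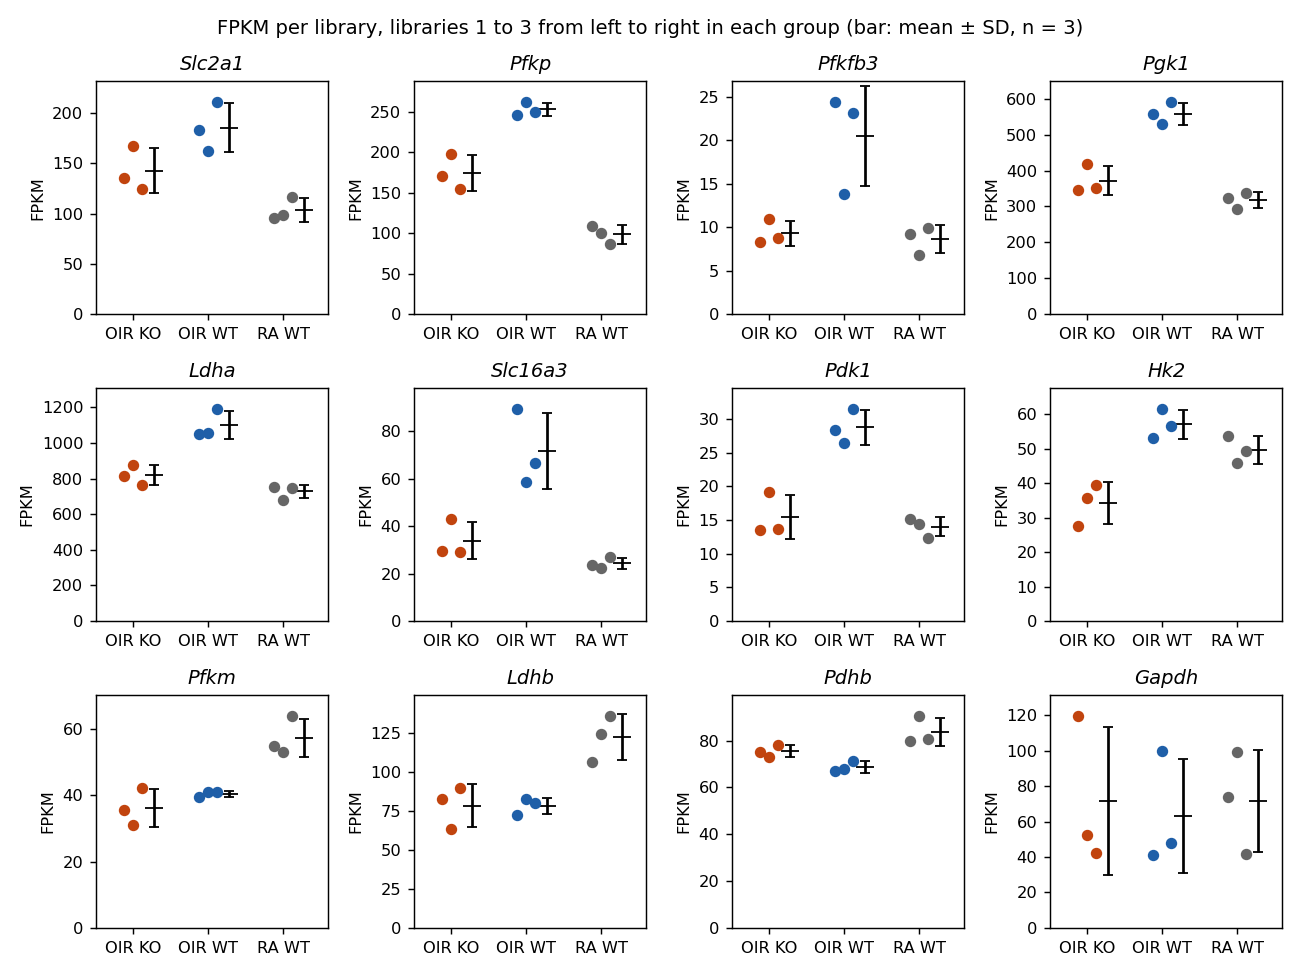
FPKM of 12 genes in each library (points, libraries 1 to 3 from left to right in each group) with the mean and SD of each group (bars, n = 3). Slc2a1, Pfkp, Pfkfb3, Pgk1, Ldha, Slc16a3 and Pdk1 have their highest mean in OIR WT, Hk2 its lowest in OIR KO, Pfkm and Ldhb their highest in RA WT, and Gapdh varies within every group.

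Aldolase splits the sugar into trioses. The main entry of Aldoa (ENSMUSG00000030695) was at 1236, 1256 and 1152 FPKM in OIR KO, at 1690.1, 1701 and 1832 FPKM in OIR WT and at 1254, 1093 and 1371 FPKM in RA WT. Its OIR KO values lay inside the room-air range and below all OIR WT values. Aldoa rose in OIR WT against RA WT (log2 0.50, SE 0.10, adjusted p = 0.0132), though not without OIR WT 3 (0.0552), and OIR KO differed from OIR WT by -0.52 (adjusted p = 0.147). A second Aldoa entry (ENSMUSG00000114515), next to it on the same strand, was at 7.77 to 14.001 FPKM in OIR KO, 9.06 to 9.77 FPKM in OIR WT and 9.43 to 11.3 FPKM in RA WT and passed no test. Aldoc, the brain form, was at 161, 146 and 170.3 FPKM in OIR KO, at 149, 173 and 172 FPKM in OIR WT and at 187, 215 and 217 FPKM in RA WT. Every retinopathy library was below every room-air library. Aldoc fell in OIR KO against RA WT (log2 -0.37, SE 0.10, adjusted p = 0.0446), but not once RA WT 2, RA WT 3, OIR KO 1, OIR KO 2 or any 1 OIR WT library was left out (0.0538 to 0.144). It was not called either with a term for the libraries without Y-linked genes (0.0607), with no filter on low values (0.0587), without trend and robust moderation (0.0616) or in a fit of the 6 libraries compared (0.0759). The OIR WT difference from RA WT was -0.33 (adjusted p = 0.0566), a call without RA WT 1 or OIR KO 2 (0.0414 to 0.0491) and with quantile normalization (0.0405) or median centring (0.0405).

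Tpi1, which interconverts the trioses, was at 393, 529 and 393 FPKM in OIR KO, at 607, 533 and 696 FPKM in OIR WT and at 367, 377 and 462 FPKM in RA WT. OIR KO 2 reached almost to the lowest OIR WT library. Tpi1 rose in OIR WT against RA WT (log2 0.60, SE 0.15, adjusted p = 0.0254), but was not called when any 1 of 4 libraries was left out, namely OIR WT 1, OIR WT 3, RA WT 1 or RA WT 2 (0.0700 to 0.0922), or with a term for the libraries without Y-linked genes (0.0622). Gapdh, the dehydrogenase of the next step and a common reference gene, was at 119.8, 52.7 and 42.6 FPKM in OIR KO, at 41.2, 100.1 and 47.9 FPKM in OIR WT and at 73.7, 99.5 and 42.02 FPKM in RA WT. Its groups overlapped, and all its values were below those of Tpi1 and Pgk1, the enzymes on either side. Gapdh was not called, with an SE of 0.49 for the OIR WT difference from RA WT of -0.21. It has many near-identical processed copies in the mouse genome that could share its reads, so its value is uncertain.

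Pgk1, the kinase of the first ATP-yielding step, was at 346, 418 and 353 FPKM in OIR KO, at 556, 528 and 590.1 FPKM in OIR WT and at 325, 292 and 337 FPKM in RA WT. The 3 groups did not overlap. Pgk1 rose in OIR WT against RA WT (log2 0.81, SE 0.10, adjusted p = 0.00209), and OIR KO differed from OIR WT by -0.59 (SE 0.10, adjusted p = 0.0817). Pgam1, the mutase that follows, was at 391, 431 and 386 FPKM in OIR KO, at 569.7, 528 and 608 FPKM in OIR WT and at 364, 379.8 and 439 FPKM in RA WT. Its knockout libraries were inside the room-air range. Pgam1 rose in OIR WT against RA WT (log2 0.53, SE 0.10, adjusted p = 0.00913), and OIR KO differed from OIR WT by -0.50 (adjusted p = 0.159). Bpgm, whose product 2,3-bisphosphoglycerate lowers the oxygen affinity of haemoglobin in red cells, was at 27.1 to 32.05 FPKM in OIR KO, 26.6 to 34.7 FPKM in OIR WT and 26.9 to 30.9 FPKM in RA WT, with overlapping groups.

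Enolase and pyruvate kinase end the pathway. Eno1, the ubiquitous enolase, was at 1363, 1401 and 1369 FPKM in OIR KO, at 1584, 1567 and 1778 FPKM in OIR WT and at 1071, 1154 and 1246 FPKM in RA WT, without overlap among the groups. In OIR WT against RA WT Eno1 rose (log2 0.51, SE 0.10, adjusted p = 0.00853), and OIR KO differed from OIR WT by -0.25 (adjusted p = 0.428). Eno2, the neuronal enolase, was at 167, 167 and 165 FPKM in OIR KO, at 172, 155 and 185 FPKM in OIR WT and at 195, 207 and 243 FPKM in RA WT. All retinopathy libraries were below all room-air libraries, but neither OIR KO (log2 -0.36, adjusted p = 0.0523) nor OIR WT (log2 -0.33, adjusted p = 0.0584) was called against RA WT. Both were called without RA WT 1, at 0.0460 for OIR KO and 0.0438 for OIR WT. With quantile normalization they were called too, at 0.0153 for OIR KO and 0.0149 for OIR WT. Pkm, the pyruvate kinase gene, was at 1062, 977 and 1081 FPKM in OIR KO, at 1301, 1202 and 1271 FPKM in OIR WT and at 1034, 913 and 1158 FPKM in RA WT. The OIR WT libraries were the 3 highest, but the difference from RA WT was not called (log2 0.29, SE 0.11, adjusted p = 0.0958), except without RA WT 3 (0.0499) or with quantile normalization (0.0385). The table holds 1 value for the gene, so its M1 and M2 splice forms were not separated.

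Lactate dehydrogenase genes moved apart in wild-type retinopathy. Ldha (chr7:46841475-46855627), which encodes the A subunit that favours making lactate, was at 813, 877 and 766 FPKM in OIR KO, at 1053, 1057 and 1191 FPKM in OIR WT and at 751, 682 and 750.1 FPKM in RA WT. All OIR KO libraries were between RA WT and OIR WT. Ldha rose in OIR WT against RA WT (log2 0.60, SE 0.10, adjusted p = 0.00469), and OIR KO differed from OIR WT by -0.43 (adjusted p = 0.189). Ldhb, which encodes the B subunit that favours using lactate, was at 82.5, 63.1 and 89.5 FPKM in OIR KO, at 72.4, 82.5 and 80.04 FPKM in OIR WT and at 107, 125 and 136 FPKM in RA WT. Both retinopathy groups lay below room air and overlapped each other. Ldhb fell in OIR KO against RA WT (log2 -0.65, SE 0.14, adjusted p = 0.0192), though not without RA WT 2 or RA WT 3 (0.0547 to 0.0732). It also fell in OIR WT against RA WT (log2 -0.64, SE 0.14, adjusted p = 0.0151), though not without RA WT 3 or OIR WT 1 (0.0568 to 0.0655). Between OIR KO and OIR WT the difference in Ldhb was -0.01 (SE 0.14, adjusted p = 0.990).

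Lactate crosses membranes through monocarboxylate carriers. Slc16a3 (chr11:120948480-120960868), which encodes MCT4, a carrier suited to lactate export, had the largest log2 rise of the 33 genes in OIR WT against RA WT with all libraries; without OIR WT 1 it was at 1.34 and Pfkp at 1.38. It was at 29.5, 42.99 and 29.2 FPKM in OIR KO, at 89.4, 58.7 and 66.7 FPKM in OIR WT and at 23.8, 22.5 and 27.1 FPKM in RA WT. The 3 groups did not overlap. Slc16a3 rose in OIR WT against RA WT (log2 1.51, SE 0.18, adjusted p = 0.00184), a call kept without each of the 9 libraries in turn. Its difference between OIR KO and OIR WT (log2 -1.07, SE 0.18, adjusted p = 0.0801) was close in size to that of Pfkfb3, while OIR KO against RA WT gave 0.44 (adjusted p = 0.154). Slc16a1, which encodes the broadly expressed MCT1, was at 47.999, 39.4 and 54.1 FPKM in OIR KO, at 43.1, 55.8 and 46.1 FPKM in OIR WT and at 55.1, 61.4 and 61.4 FPKM in RA WT, with overlap between OIR WT and RA WT. Slc16a1 was called neither in OIR KO (log2 -0.34, adjusted p = 0.132) nor in OIR WT (log2 -0.30, adjusted p = 0.160) against RA WT.

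Where pyruvate enters mitochondria, 2 kinases that switch off pyruvate dehydrogenase rose in wild-type retinopathy and 1 subunit of the enzyme fell. Pdk1 (chr2:71873224-71903858), a kinase known as a hypoxia target, was at 13.5, 19.2 and 13.6 FPKM in OIR KO, at 28.3, 26.4 and 31.5 FPKM in OIR WT and at 15.2, 14.4 and 12.4 FPKM in RA WT. OIR KO 1 and OIR KO 3 lay within the room-air range, and OIR KO 2 between room air and OIR WT. Pdk1 rose in OIR WT against RA WT (log2 1.01, SE 0.14, adjusted p = 0.00312). The OIR KO difference from OIR WT was -0.89 (SE 0.14, adjusted p = 0.0665), a call with median centring (0.0487) as well as without OIR KO 2. Pdk3, another kinase of the enzyme, was at 10.8, 12.9 and 10.1 FPKM in OIR KO, at 16.2, 13.1 and 16.7 FPKM in OIR WT and at 10.5, 10.7 and 12.1 FPKM in RA WT. All OIR WT libraries exceeded the others, OIR WT 2 only just. Pdk3 rose in OIR WT against RA WT (log2 0.45, SE 0.12, adjusted p = 0.0359), but not once any 1 RA WT library, OIR KO 1, OIR WT 1 or OIR WT 3 was left out (0.0533 to 0.128). Nor was Pdk3 called with the term for libraries without Y-linked genes (0.0798) or with no filter on low values (0.0522). Pdk2, the most abundant kinase by FPKM, was at 33.1, 33.96 and 35.6 FPKM in OIR KO, at 34.3, 36.9 and 36.98 FPKM in OIR WT and at 37.1, 39.6 and 42.1 FPKM in RA WT and was not called in OIR WT against RA WT (log2 -0.13, adjusted p = 0.295). Pdk4, the kinase known for its response to fasting, did not pass the filter on low values and was at 0.166 to 0.299 FPKM in OIR KO, 0.0540 to 0.152 FPKM in OIR WT and 0.0938 to 0.186 FPKM in RA WT.

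Pdhb, the beta subunit of the E1 component of pyruvate dehydrogenase, was at 75.1, 73.2 and 78.1 FPKM in OIR KO, at 66.9, 67.8 and 71.4 FPKM in OIR WT and at 79.7, 90.5 and 80.8 FPKM in RA WT. The OIR KO libraries lay between the other groups. Pdhb fell in OIR WT against RA WT (log2 -0.28, SE 0.08, adjusted p = 0.0412), but not once RA WT 2, RA WT 3, OIR KO 1, OIR KO 3 or any 1 OIR WT library was left out (0.0582 to 0.148). The Pdhb call was also lost with the term for libraries without Y-linked genes (0.0893), without trend and robust moderation (0.0643) and in a fit of the 6 libraries compared (0.0809). Pdha1, the alpha subunit, was at 29.7 to 33.4 FPKM in OIR KO, 31.8 to 33.3 FPKM in OIR WT and 33.98 to 37.1 FPKM in RA WT. Dlat, the E2 component, was at 12.6 to 14.04 FPKM in OIR KO, 13.6 to 13.7 FPKM in OIR WT and 15.8 to 16.7 FPKM in RA WT. Both were lower in every retinopathy library than in every room-air library, but in OIR WT against RA WT neither was called, with adjusted p = 0.327 for Pdha1 and 0.0618 for Dlat (0.0442 with median centring). The genes of the mitochondrial pyruvate carrier were not called. Mpc1 was at 42.03, 29.1 and 33.000 FPKM in OIR KO, at 24.5, 24.2 and 30.1 FPKM in OIR WT and at 35.5, 32.6 and 35.8 FPKM in RA WT, with a difference of -0.40 between OIR WT and RA WT (adjusted p = 0.0778, or 0.0439 without OIR KO 1). Mpc2, its partner, was at 31.6 to 37.5 FPKM in OIR KO, 35.7 to 41.4 FPKM in OIR WT and 36.3 to 50.8 FPKM in RA WT.

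**Figure D3:**
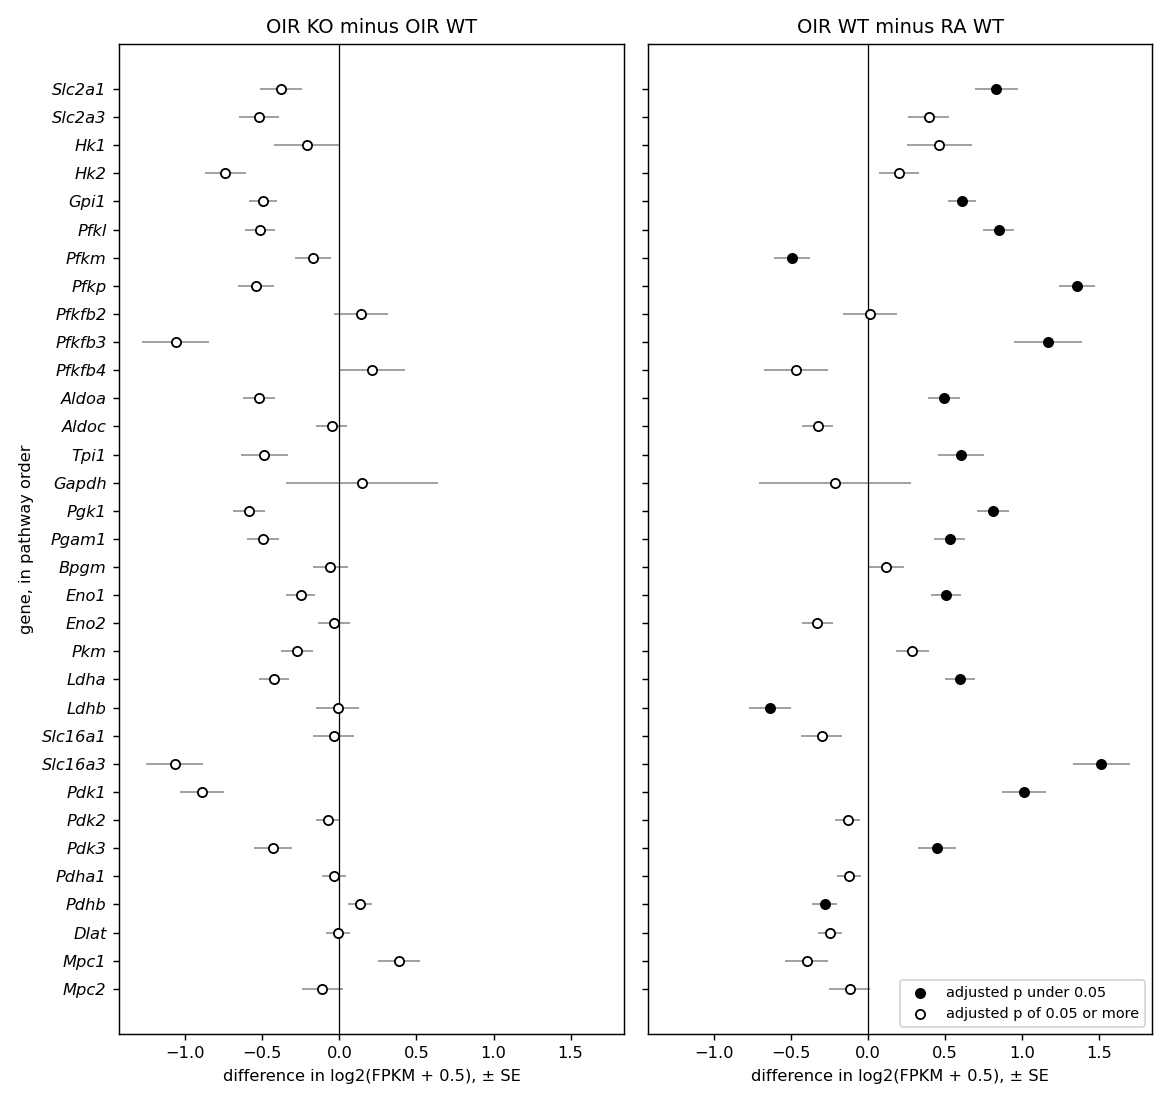
Log2 difference with its standard error for the 33 genes tested, in pathway order, for OIR KO minus OIR WT (left) and OIR WT minus RA WT (right); filled points have an adjusted p under 0.05. On the left no point is filled, and the 14 genes that rose in OIR WT lie between -1.07 and -0.25; on the right 14 points are filled above 0 and 3 below.

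Isoforms of a step are read from the same library, so their ratio does not depend on how libraries are scaled. In 7 of 8 pairs every OIR WT library had a higher ratio than every RA WT library. Each of the 7 had p = 0.1 in an exact two-sided permutation test (0.15 when adjusted over 24 tests). In that test 0.1 is the smallest p that 3 against 3 libraries allow. The first gene of each of these 7 pairs was called as risen in the same libraries, so the ratios are not separate evidence. No share over other pairs of genes was computed. The ratio of Ldha to Ldhb was 10.8 ± 2.78 in OIR KO, 14.1 ± 1.11 in OIR WT and 6.01 ± 0.893 in RA WT (SD, n = 3 each). OIR KO overlapped OIR WT in this ratio through OIR KO 2. Slc16a3 exceeded Slc16a1 in every OIR WT library. Their ratio was 0.614, 1.09 and 0.538 in OIR KO, 2.07, 1.05 and 1.45 in OIR WT and 0.432, 0.366 and 0.441 in RA WT, so that by FPKM the more abundant lactate carrier gene differed between OIR WT and RA WT. Eno1 to Eno2 gave 8.29 ± 0.113 in OIR KO, 9.63 ± 0.450 in OIR WT and 5.401 ± 0.246 in RA WT, with no overlap among the groups. Aldoa to Aldoc likewise separated the groups, at 6.76 to 8.60 in OIR KO, 9.83 to 11.3 in OIR WT and 5.08 to 6.70 in RA WT.

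For Slc2a1 to Slc2a3, OIR KO was not below OIR WT, at 5.86 to 6.88 in OIR KO, 5.25 to 5.93 in OIR WT and 4.12 to 4.22 in RA WT. Hk2 to Hk1 was the pair in which OIR WT overlapped RA WT (exact permutation p = 0.2), at 0.148, 0.103 and 0.198 in OIR KO, 0.181, 0.248 and 0.204 in OIR WT and 0.239, 0.256 and 0.258 in RA WT. All OIR KO libraries were below all RA WT libraries in it (exact permutation p = 0.1). Pdk1 to Pdk2 was 0.383 to 0.566 in OIR KO, 0.717 to 0.851 in OIR WT and 0.295 to 0.410 in RA WT, with OIR KO entirely below OIR WT (exact permutation p = 0.1). Pfkfb3 to Pfkfb2 was 0.0846 to 0.140 in OIR KO, 0.135 to 0.332 in OIR WT and 0.0925 to 0.132 in RA WT, and OIR KO 2 just passed OIR WT 2.

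**Figure D4:**
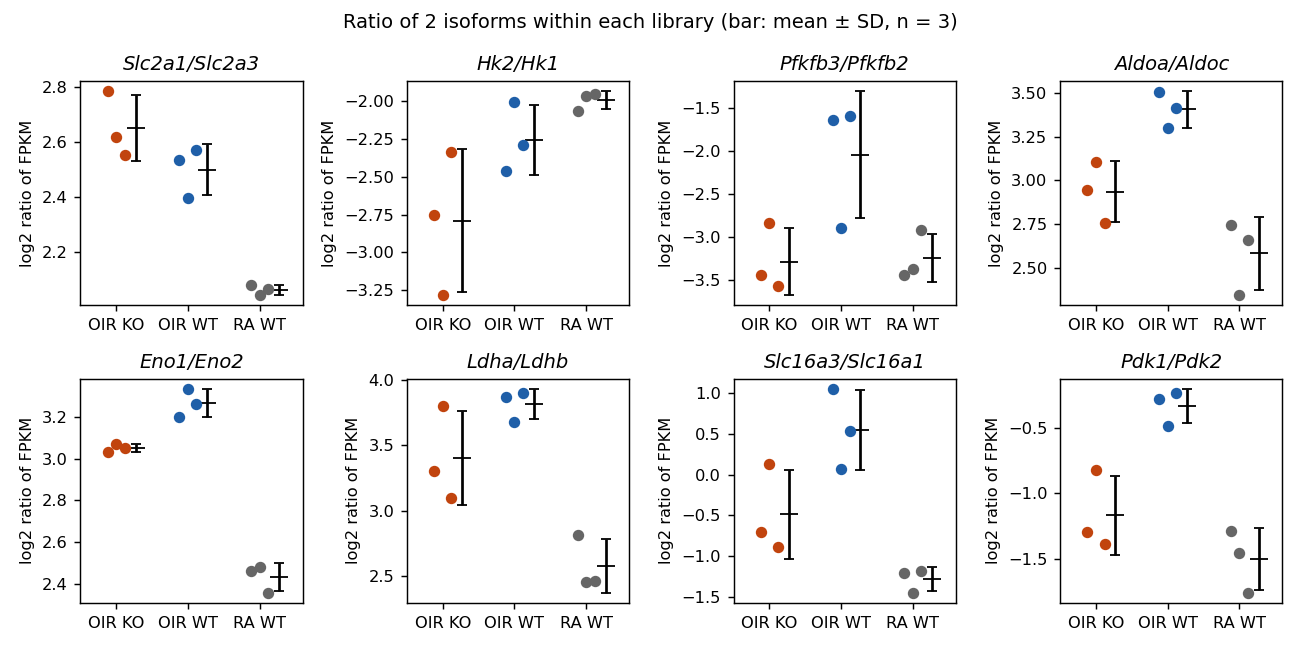
Log2 ratio of the FPKM of 2 isoforms in each library (points) with the mean and SD of each group (bars, n = 3), for 8 pairs. OIR WT lies above RA WT in all pairs but Hk2/Hk1, and OIR KO lies between OIR WT and RA WT without overlap for Aldoa/Aldoc and Eno1/Eno2.

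Levels per length can be added over the genes of a step. The summed lactate dehydrogenases were at 897 ± 42.4 FPKM in OIR KO, 1178 ± 80.1 FPKM in OIR WT and 850.0 ± 40.05 FPKM in RA WT (SD, n = 3 each). Phosphofructokinase summed to 349 ± 32.1 FPKM in OIR KO, 490.4 ± 11.99 FPKM in OIR WT and 265 ± 9.36 FPKM in RA WT, and the ratio of the means of OIR WT and RA WT, 1.85, was the largest of the 17 steps. Monocarboxylate carriers summed to 81.1 ± 3.13 FPKM in OIR KO, 119.9 ± 10.9 FPKM in OIR WT and 83.8 ± 4.76 FPKM in RA WT. The pyruvate dehydrogenase subunits went the other way, at 121 ± 3.12 FPKM in OIR KO, 115 ± 2.90 FPKM in OIR WT and 135 ± 4.36 FPKM in RA WT. In each of these 4 sums OIR WT overlapped neither OIR KO nor RA WT (exact permutation p = 0.1 for each, the smallest possible). These p-values were not adjusted over steps and comparisons, and no share over sums of other genes was computed. The sums repeat the gene values given above. Ldha alone made up a mean of 91.2% of its sum in OIR KO, 93.3% in OIR WT and 85.6% in RA WT. For glucose carriers, hexokinases, PFKFB enzymes, Gapdh and the mitochondrial pyruvate carrier, OIR KO and OIR WT did overlap. In the remaining steps these groups did not.

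Against room air, Pfkp rose and Hk2, Pfkm, Aldoc and Ldhb fell in knockout retinopathy. Of these, Pfkp and Pfkm kept the call without each library in turn, and Hk2, Aldoc and Ldhb did not. In OIR KO against RA WT, 1 of the 33 genes rose (3.03%) and 4 fell (12.1%), together 5, against 4.75% risen, 5.69% fallen and 10.4% in either direction among all genes. Without 1 library, 1 to 2 rose and 1 to 4 fell, with 1 fallen without RA WT 3, 2 without RA WT 2, OIR KO 1 or OIR KO 2, and 2 risen without OIR KO 3. With quantile normalization Slc2a1 (limma adjusted p = 0.0306) and Pfkl (limma adjusted p = 0.0315) were called as risen too. At an unadjusted p under 0.05, 5 were higher and 8 lower, against 14.1% and 13.5% of all genes. Every OIR KO library was above every RA WT library in 7 of the 33 and below in 10, against 17.3% and 15.4%. The median log2 difference of the 33 was 0.01, against 0.02 over all genes.

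Among the 14 genes that rose in OIR WT, the mean in OIR KO was above RA WT in 13, with log2 differences of -0.02 (Aldoa) to 0.82 (Pfkp) and a median of 0.15. It was below OIR WT in 14, with log2 differences of -1.07 (Slc16a3) to -0.25 (Eno1) and a median of -0.51. In 13 of the 14, all but Slc2a1, no OIR KO library overlapped OIR WT. These 14 were picked by their high values in OIR WT, so their place relative to those libraries is a description.

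The bases before the start of these genes were searched on both strands for ACGTG, a form of the core letters of the site that hypoxia-inducible factors read. Other forms of the core were not searched. RefSeq promoter windows (GRCm38.p6) were found for 33 of the 34 genes, all but Slc2a3, and the 250 bases before each start were used. ACGTG was present for 8 of the 14 risen genes and 7 of the 19 others, against 18.5% of the 27025 genes with a window. The 7 others were Hk2, Pfkfb2, Pkm, Slc16a1, Pdk2 and 2 of the 3 fallen genes, Pfkm and Pdhb. The 27025 include genes not tested here, and no share over the tested genes alone was computed. Several genes have more than 1 window, and a match is a run of letters, not a shown binding site. In 7 risen genes the most upstream window held a match, and the stretch around it is shown for each, since these genes rose together. Capitals mark the matches, and the palindrome CACGTG holds overlapping matches, 1 on each strand.
Slc2a1: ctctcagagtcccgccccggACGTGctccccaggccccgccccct
Pfkfb3: ctccgcgccgtgACGTGccaagctgtgac
Pgk1: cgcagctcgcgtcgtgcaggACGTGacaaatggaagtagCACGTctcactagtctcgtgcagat
Pgam1: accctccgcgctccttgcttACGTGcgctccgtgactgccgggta
Ldha: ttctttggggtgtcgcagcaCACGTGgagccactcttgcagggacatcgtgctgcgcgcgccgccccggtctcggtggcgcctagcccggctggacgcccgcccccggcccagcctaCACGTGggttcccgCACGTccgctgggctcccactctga
Slc16a3: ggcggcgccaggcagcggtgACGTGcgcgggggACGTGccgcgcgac
Pdk3: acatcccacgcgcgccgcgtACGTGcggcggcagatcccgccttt
They lie at chr4:119108689-119108733 (plus strand) for Slc2a1, chr2:11553973-11554001 (minus strand) for Pfkfb3, chrX:106186930-106186993 (plus strand) for Pgk1, chr19:41911737-41911781 (plus strand) for Pgam1, chr7:46845639-46845794 (plus strand) for Ldha, chr11:120949020-120949066 (plus strand) for Slc16a3 and chrX:93832179-93832223 (minus strand) for Pdk3. By GENCODE M21, the stretches of Pgk1 and Pgam1 lie before the annotated gene and that of Ldha inside it but outside exons, while those of Slc2a1, Pfkfb3, Slc16a3 and Pdk3 hold 23, 29, 14 and 23 exonic bases. Ldha had 5 matches, and Pgk1 and Slc16a3 had 2 each. Aldoa, the other risen gene with ACGTG, is not shown. Gpi1, Pfkl, Pfkp, Tpi1, Eno1 and Pdk1, which also rose, held no ACGTG in these windows.

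Of 46 other genes of glucose and pyruvate use, 34 were tested in OIR WT against RA WT, where 1 rose (2.94%) and 7 fell (20.6%), against 8.04% risen and 7.92% fallen among all genes, with a median log2 difference of -0.16. Emb, which encodes embigin, a partner of monocarboxylate carriers, was at 5.19 ± 0.0505 FPKM in OIR KO, 5.78 ± 0.949 FPKM in OIR WT and 11.8 ± 1.96 FPKM in RA WT. It fell in OIR KO against RA WT (log2 -1.10, SE 0.15, adjusted p = 0.00373) and in OIR WT against RA WT (log2 -0.97, SE 0.15, adjusted p = 0.00373). Slc2a13, a myo-inositol carrier gene, was at 2.51 ± 0.371 FPKM in OIR KO, 2.94 ± 0.396 FPKM in OIR WT and 5.75 ± 0.547 FPKM in RA WT, and fell in OIR KO against RA WT (log2 -1.06, SE 0.14, adjusted p = 0.00385) and in OIR WT against RA WT (log2 -0.86, SE 0.14, adjusted p = 0.00526). Of 10 pentose phosphate genes 0 rose and 1 fell (10%) in OIR WT against RA WT. Of 18 tricarboxylic acid cycle genes 0 rose and 1 fell (5.56%). Both fallen shares were near that of all genes. Of the 18, 16 were below 0 in log2 difference, with a median of -0.11, against a median of 0.02 over all genes. The share of all genes below 0 was not computed. Of 23 tested genes of glycogen metabolism 6 rose (26.1%) and 3 fell (13%), against the 8.04% and 7.92% of all genes. Gys1, glycogen synthase, was at 7.68 ± 4.26 FPKM in OIR KO, 12.95 ± 1.31 FPKM in OIR WT and 4.98 ± 1.096 FPKM in RA WT, and rose in OIR WT against RA WT (log2 1.31, SE 0.31, adjusted p = 0.0222). Ppp1r3b, which targets a phosphatase to glycogen, was at 0.642 ± 0.337 FPKM in OIR KO, 1.36 ± 0.178 FPKM in OIR WT and 0.215 ± 0.0584 FPKM in RA WT, and rose in OIR WT against RA WT (log2 1.38, SE 0.21, adjusted p = 0.00391). Its RA WT mean lay below the 0.5 FPKM of the filter, which it passed through retinopathy libraries, where it was high. The call of Ppp1r3b is therefore a description, and its levels were near the floor. Of these 4 lists, limma called 0 genes in OIR KO against OIR WT. At an unadjusted p under 0.05, that comparison had 3 higher and 3 lower of the 34 other genes, 2 higher and 7 lower of the 23 glycogen genes, and 0 of the 10 pentose phosphate and 18 tricarboxylic acid cycle genes, against 5.17% higher and 4.75% lower among all genes.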

How the data were processed

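RNA of 9 retinal libraries, grouped by title, was extracted with Trizol and made into NEBNext Ultra libraries, per the labels. The submitters' processing notes name HISAT2 and GRCm38; no quantifier, annotation or strand setting is given in the sources used here, so reads of antisense overlaps (such as Fam57b over Aldoa, Senp1 over Pfkm or Pitrm1 over Pfkp) cannot be separated. The authors deposited 1 table of FPKM. Its low values were searched for steps of whole reads: 25.6 to 42.9% lay within 0.02 of a step, too few to recover reads, so depth and its precision are unknown.

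Genes with at least 0.5 FPKM in 3 libraries (15678) were fitted as log2(FPKM + 0.5), which understates changes of low genes, with limma 3.58.1 in R 4.3.3 (all 9 libraries, trend, robust, Benjamini-Hochberg over all genes), tested on simulated data. Isoform ratios and step sums had exact permutation tests (scipy 1.17.1). Coordinates are from GENCODE M21, promoters from RefSeq. All members were named; other pathway genes were named when called with a log2 difference of at least 1. Emb and Slc2a13 in OIR WT, given beside their knockout values, were chosen after their values were seen. Members and lists were chosen with earlier results of these data known. Alternatives changed pseudocount (0.1, 1), filter, scaling, moderation, libraries and covariates.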

Additional observations from a re-analysis of the deposited data

How the results depend on the processing

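The counts of risen and fallen genes stayed within 1.5 times under the other pseudocounts and filters. In OIR WT against RA WT 3 genes fell, against 5 with quantile normalization, 6 with median centring and 0 to 5 without 1 library. Between OIR KO and OIR WT 0 fell, against 1 with median centring and 0 to 4 without 1 library. In OIR KO against RA WT 4 fell, against 2 with only those 6 libraries and 1 to 4 without 1 library, and 1 rose, against 3 with quantile normalization and 1 to 2 without 1 library. Same-numbered libraries had deviations from their group means with r from -0.353 to 0.134, and differently numbered ones with r from -0.165 to 0.351. With groups of 3 libraries, such values cannot exclude that the numbers pair them. With the replicate number as a block, 12 rose and 2 fell in OIR WT against RA WT, and 2 fell in OIR KO against RA WT.

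The term for libraries without Y-linked genes ended 4 calls, of Tpi1, Pdk3 and Pdhb in OIR WT and Aldoc in OIR KO against RA WT. Directions turned for genes not called in the comparison. With median centring, OIR WT against RA WT gave -0.035 for Pfkfb2, OIR KO against OIR WT 0.0078 for Ldhb and 0.0081 for Dlat, and OIR KO against RA WT -0.015 for Pkm and -0.0097 for Pdk3; quantile normalization gave 0.042 for Aldoa there. With a term for libraries without Y-linked genes, OIR WT against RA WT gave -0.035 for Pfkfb2 and 0.15 for Gapdh, and OIR KO against OIR WT -0.21 for Gapdh and 0.0053 for Pdha1. Without 1 library, log2 differences ran as follows: in OIR WT against RA WT from -0.15 to 0.16 (Pfkfb2), -0.60 to 0.065 (Gapdh) and -0.21 to 0.027 (Mpc2). For OIR KO against OIR WT they ran from -0.12 to 0.011 (Aldoc), -0.30 to 0.53 (Gapdh), -0.17 to 0.019 (Bpgm), -0.10 to 0.024 (Eno2), -0.11 to 0.14 (Ldhb), -0.14 to 0.084 (Slc16a1), -0.070 to 0.014 (Pdha1) and -0.039 to 0.036 (Dlat). For OIR KO against RA WT they ran from -0.032 to 0.42 (Hk1), -0.042 to 0.21 (Pfkfb3), -0.11 to 0.052 (Aldoa), -0.025 to 0.22 (Tpi1), -0.51 to 0.23 (Gapdh), -0.022 to 0.11 (Pgam1), -0.075 to 0.097 (Pkm), -0.040 to 0.21 (Pdk1), -0.077 to 0.087 (Pdk3) and -0.16 to 0.10 (Mpc1). There the log2 ratio of Pfkfb3 to Pfkfb2 differed by -0.26 to 0.12, summed hexokinases by -21.1 to 63.3 FPKM and summed mutases by -6.30 to 32.2 FPKM; summed PFKFB enzymes differed by -9.43 to 4.15 FPKM in OIR KO against OIR WT. The cause was not tested.

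The count of 16 genes with all OIR KO libraries below all OIR WT libraries was 15 with quantile normalization, 16 with median centring and 16 to 19 without 1 library, while the share of all genes was 7.98% with all libraries and 10.7 to 17% without 1, alternatives chosen after seeing the data. Groups of 3 libraries and an unknown depth limit what small differences can show.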
